A study of Mus musculus with 8 samples.

Results

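The mitochondrial biogenesis regulators examined here were 10 genes, Ppargc1a, Ppargc1b, Pprc1, Nrf1, Gabpa, Gabpb1, Esrra, Yy1, Sirt1 and Sirt3, chosen by symbol from the 26586 genes of the count table, and all 10 were found. The number of mitochondria that a cell builds is set largely in its nucleus, because most mitochondrial proteins are nuclear-encoded. Coactivators of the PGC-1 family (Ppargc1a, Ppargc1b and Pprc1) dock on transcription factors such as NRF1, GABP, ERR-alpha and YY1 and raise the transcription of genes for the respiratory chain and for the upkeep of mitochondrial DNA, while the NAD-dependent deacetylases SIRT1 and SIRT3 act on the coactivators and on mitochondrial enzymes. In the ovary, the oocyte of a primordial follicle is arrested and holds few mitochondria compared with a grown oocyte, and it is surrounded by flat granulosa cells.

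Primordial follicles were taken on postnatal day 3 from ovaries of C57Bl/6 x CBA mice. The mito-supplemented group (4 samples) was of the third-generation offspring of founders that arose from oocytes injected with mitochondria from egg precursor cells together with the sperm, and the control group (4 samples) were colony mice of the same cross without such supplementation. Ovaries were digested with enzyme and follicles picked by pipette and pooled, and the RNA was amplified before sequencing, so that a sample is a pool of follicles and of any cells that stuck to them. Each sample's group was taken from its label, and every direction given rests on those labels. In the heat map of the paper the colour key puts the samples with high Egr1 under control, whereas by the labels Egr1 is higher in the mito-supplemented libraries, so if the labels were exchanged every direction below would turn. Label codes share their first part within groups (control replicates 1 and 2, control replicates 3 and 4, and mito-supplemented replicates 1 to 3), and whether this marks a litter or a mother is not stated.

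The libraries held 17658559, 13917412, 18219362 and 10370045 counts across controls 1 to 4, against 19760763, 13370911, 16116434 and 13276462 across mito-supplemented libraries 1 to 4. Control replicate 4 stood apart, with only 2559876 counts outside the rRNA genes Rnr1, Rnr2, Rn45s and Rn18s, against 7280214 or more in each of the other libraries, and with 74.0% of its counts in Rnr1 and Rnr2. Values are given in CPM, the counts of a gene scaled to a common library size with edgeR's TMM factors, in which 1 count was worth 0.197 CPM in control replicate 4 and between 0.0410 and 0.0793 CPM elsewhere.

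The labelled cell type was checked against marker genes. All 10 oocyte markers had counts in all 8 libraries, but their summed level was uneven, with 1949 CPM in control replicate 1, 154, 95.9 and 386 CPM in control replicates 2 to 4, against 224, 119, 435 and 75.8 CPM across mito-supplemented libraries 1 to 4. Kit, the receptor on the oocyte surface, was the most abundant of them in sum, from 16.2 to 629 CPM. In control replicate 2 it gave 91.7 of the 154 CPM. Some markers were near the floor, Sohlh1 being at 0.0695 CPM in mito-supplemented replicate 4, where 1 count was worth as much. The 9 granulosa markers, led by Kitl, summed to 159, 66.2, 161 and 285 CPM across controls 1 to 4, against 88.9, 170, 325 and 234 CPM across mito-supplemented libraries 1 to 4. Fewer cells of a type and less RNA per cell cannot be told apart in such pooled samples, and this holds for every gene described below.

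Levels of different genes were set beside each other per kilobase of exon, the length being that of all annotated exons of a gene joined. The transcripts present may be shorter, so every comparison between genes per kilobase is approximate. On this measure Gabpa had the highest level of the 10 regulators in 8 of 8 libraries, with a median of 17.8 CPM per kilobase. Sirt1 followed with a median of 10.5, then Pprc1 with 7.27, Yy1 with 5.18, Nrf1 with 3.81 and Gabpb1 with 2.88 CPM per kilobase. The lowest were Ppargc1b with 1.04, Ppargc1a with 0.702, Sirt3 with 0.667 and Esrra with 0.222 CPM per kilobase. Gabpa was above Sirt1 and Sirt3 above Esrra in all 8 libraries, and Sirt1 was above Pprc1 in 7 of 8. The other neighbours in this order changed places between libraries, Pprc1 and Yy1 as well as Ppargc1b and Ppargc1a keeping their order in 5 of 8 libraries and Ppargc1a and Sirt3 in 4 of 8.

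**Figure D1:**
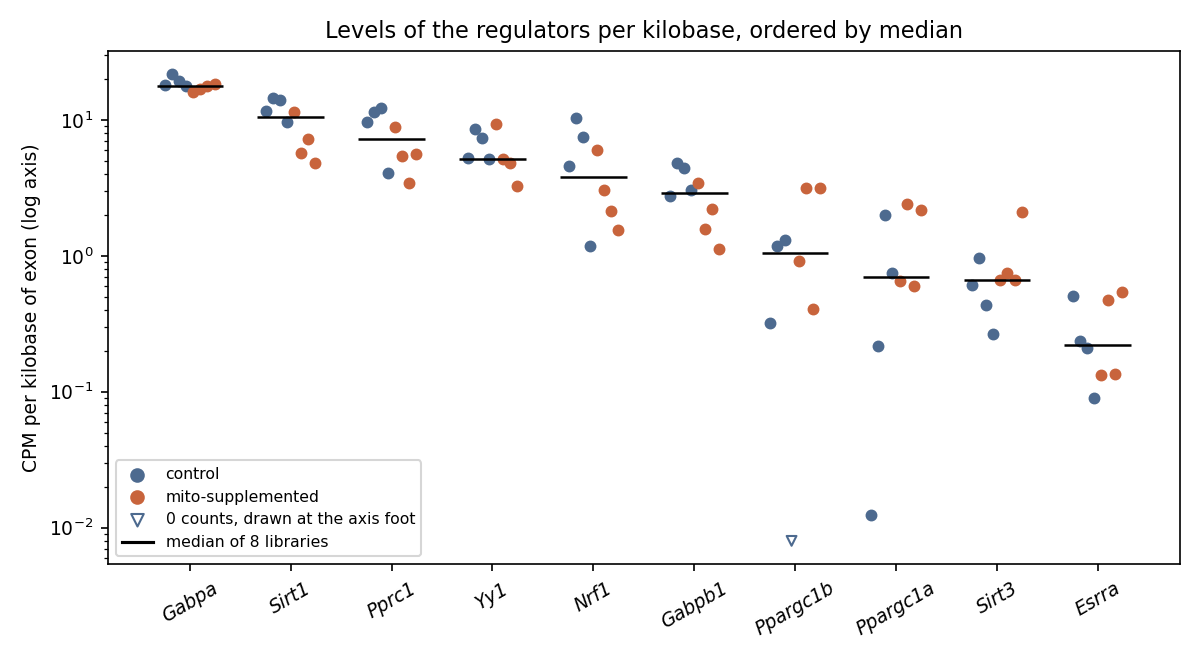
Level of each regulator in CPM per kilobase of exon on a log axis, with 1 point per library in the colour of its group and a line at the median of the 8 libraries. Gabpa lies between 16.1 and 21.7 in every library, whereas Ppargc1a runs from 0.0125 to 2.40.

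Among the coactivators, Ppargc1a encodes PGC-1alpha, the member that is induced by cold, fasting and exercise in other tissues. Its level was 0.0821, 1.43, 13.2 and 4.93 CPM across controls 1 to 4, against 4.32, 15.8, 3.95 and 14.2 CPM across mito-supplemented libraries 1 to 4. Mito-supplemented replicates 2 and 4 lay above every control, the other 2 lay inside the control range, and control replicate 1 was far below the rest with 2 counts, for which the exact 95% binomial interval runs from 0.00994 to 0.296 CPM. The group means were 4.90 ± 5.87 and 9.56 ± 6.30 CPM (SD, n = 4 each), and the log2 fold change was 0.96 (standard error 1.11, adjusted p = 0.809 in edgeR's quasi-likelihood test). Its size varied with the method and with single libraries, being 2.52 with limma-voom, 2.25 with the replicate number as a block, 2.20 without control replicate 3 and 0.57 without control replicate 1.

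Ppargc1b, which encodes the close relative PGC-1beta, had 1.27, 4.68, 5.20 and 0 CPM across controls 1 to 4, against 3.64, 12.5, 1.63 and 12.7 CPM across mito-supplemented libraries 1 to 4. As for Ppargc1a, mito-supplemented replicates 2 and 4 were the highest of the 8 libraries and the groups overlapped through the other 2. The 0 counts in control replicate 4 allow a level of up to 0.728 CPM in that shallow library by the same exact 95% interval, and such intervals cover counting error only, as amplification can copy a molecule many times. The log2 fold change was 1.43 (standard error 1.11, adjusted p = 0.741 in the same edgeR test).

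Pprc1, the PGC-1-related coactivator that responds to growth signals, was the most abundant of the coactivators in each library. It had 60.9, 71.6, 77.0 and 25.7 CPM across controls 1 to 4, against 55.9, 34.3, 21.5 and 35.5 CPM across mito-supplemented libraries 1 to 4. Controls 1 to 3 were above all mito-supplemented libraries, while control replicate 4 was below 3 of them, so that the groups overlapped through this library. In log2 terms the difference was -0.68 (standard error 0.44, adjusted p = 0.711 in the same edgeR test), and without control replicate 4 it was -0.91 (unadjusted p = 0.0406, adjusted p = 0.375). Its adjusted p lay between 0.375 and 0.972 in all alternatives. A stretch of 177 bases of its exons overlaps exons of Ldb1 on the opposite strand, and as the sources used here do not give the strand setting of the counting, reads from this stretch cannot be assigned.

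The make-up of the coactivator transcripts varied as well. Pprc1 made up 96.7%, 89.1%, 78.8% and 84.5% of the summed level of the 3 coactivators per kilobase across controls 1 to 4, against 85.0%, 49.6%, 77.2% and 51.5% across mito-supplemented libraries 1 to 4. In mito-supplemented replicates 2 and 4 about as much came from Ppargc1a and Ppargc1b together, Ppargc1b giving 28.6% and 28.9% and Ppargc1a 21.8% and 19.6%. Mito-supplemented replicates 2, 3 and 4 lay below every control in the share of Pprc1, and mito-supplemented replicate 1 lay within the control range. The sum of the 3 did not follow this, with 4.83 to 15.6 CPM per kilobase in controls and 4.42 to 10.99 in mito-supplemented libraries.

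Of the transcription factors, Nrf1 encodes nuclear respiratory factor 1 and is not to be confused with Nfe2l1, which is also called NRF1. It had 47.3, 105, 77.4 and 12.04 CPM across controls 1 to 4, against 62.0, 31.1, 21.9 and 15.8 CPM across mito-supplemented libraries 1 to 4. The controls were both the highest and the lowest libraries, and all 4 mito-supplemented values fell within the control range. The log2 fold change was -0.89 (standard error 0.64, adjusted p = 0.728 in the same edgeR test). Without control replicate 4, which held 61 counts of Nrf1, it was -1.21 (unadjusted p = 0.0444, adjusted p = 0.382). It was -0.48 without control replicate 2 (unadjusted p = 0.485) and -1.38 without mito-supplemented replicate 1 (unadjusted p = 0.0631), and adjusted p lay between 0.381 and 0.972 in all alternatives.

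Gabpa encodes the DNA-binding alpha subunit of GABP, the ETS-family factor also known as nuclear respiratory factor 2. It had 102, 123, 109 and 100.1 CPM across controls 1 to 4, against 91.5, 95.4, 101 and 105 CPM across mito-supplemented libraries 1 to 4. The groups overlapped, and the highest library was only 1.35 times the lowest. The standard deviation of its log2 CPM over the 8 libraries was 0.13, and only 11 of the 13873 genes tested had a smaller one (0.0793% of them), the median being 0.98. This steadiness depends on the scaling, since with library size only the standard deviation was 0.48 and 553 genes (3.99%) varied less, whereas with upper quartile scaling 9 genes did. Its log2 fold change was -0.15 (standard error 0.27, adjusted p = 0.872 in the same edgeR test), and with library size only it was 0.14. The annotation places 397 bases of Gabpa exons opposite exons of Atp5j, with which it shares a promoter region.

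Promoter windows were searched for the motifs of the transcription factors among the 10. RefSeq (GRCm38.p6) gave 12 windows of 300 bases for 9 of the 10 regulators, and none for Ppargc1b. The motifs were GCGCATGCG for NRF1, CCGGAAG for GABP and other ETS factors, AAGATGGCG for YY1 and TCAAGGTCA for ERR-alpha, each read on both strands. Only Gabpa and Sirt3 held any of these letters. The window of Gabpa had the GABP motif 93 bases before the start site and the YY1 motif 68 bases before it, with 18 bases between them, and that of Sirt3 had the GABP motif 85 bases before the start site. Both are shown 5′ to 3′ on the strand of the gene, with the motifs, which here read as their reverse complements, in capitals.
Gabpa, plus strand, chr16:84834986-84835109: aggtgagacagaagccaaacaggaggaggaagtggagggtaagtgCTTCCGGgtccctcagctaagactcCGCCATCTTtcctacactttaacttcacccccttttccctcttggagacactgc
Sirt3, minus strand, chr7:140882343-140882439: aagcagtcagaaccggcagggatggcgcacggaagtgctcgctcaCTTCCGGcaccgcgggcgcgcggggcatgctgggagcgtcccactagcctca
The GABP motif was present in 8.86% of all 32851 promoter windows, the YY1 motif in 1.4%, the NRF1 motif in 1.75% and the ERR-alpha motif in 0.423%. A match describes letters and not binding, and no match says only that these letters are not in this window.

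Gabpb1 encodes a beta subunit, which carries the transcription-activating domain of GABP. It had 21.2, 37.0, 34.3 and 23.5 CPM across controls 1 to 4, against 26.4, 12.2, 17.0 and 8.69 CPM across mito-supplemented libraries 1 to 4. Mito-supplemented replicates 2 to 4 were below every control, and replicate 1 alone lay within their range. The log2 fold change was -0.85 (standard error 0.44, unadjusted p = 0.0820, adjusted p = 0.667 in the same edgeR test). Without mito-supplemented replicate 1 it was -1.18 (unadjusted p = 0.0299, adjusted p = 0.310) and with library size only -0.55, and adjusted p lay between 0.310 and 0.972 in all alternatives.

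As Gabpa was nearly level, the ratio of the subunit genes followed Gabpb1. Per kilobase, Gabpb1 stood to Gabpa as 0.152, 0.220, 0.230 and 0.172 across controls 1 to 4, against 0.212, 0.0938, 0.124 and 0.0608 across mito-supplemented libraries 1 to 4. Gabpb2, the gene of the other beta subunit and a relative outside the 10, had more transcript than Gabpb1 in every library, from 1.81 to 5.24 times as much per kilobase. Its own ratio to Gabpa was 0.311, 1.16, 1.11 and 0.311 across controls 1 to 4, against 0.889, 0.298, 0.229 and 0.242 across mito-supplemented libraries 1 to 4. Control replicates 2 and 3 and mito-supplemented replicate 1 were the 3 highest in both ratios, and mito-supplemented replicates 2 to 4 the 3 lowest. Ratios within a library do not depend on its scaling. The mean of Gabpb2 was 222 ± 160 CPM for controls, against 108 ± 76.0 CPM with supplementation (SD, n = 4 each), and edgeR put its log2 fold change at -1.05 (standard error 0.62, adjusted p = 0.689 in the same edgeR test).

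**Figure D2:**
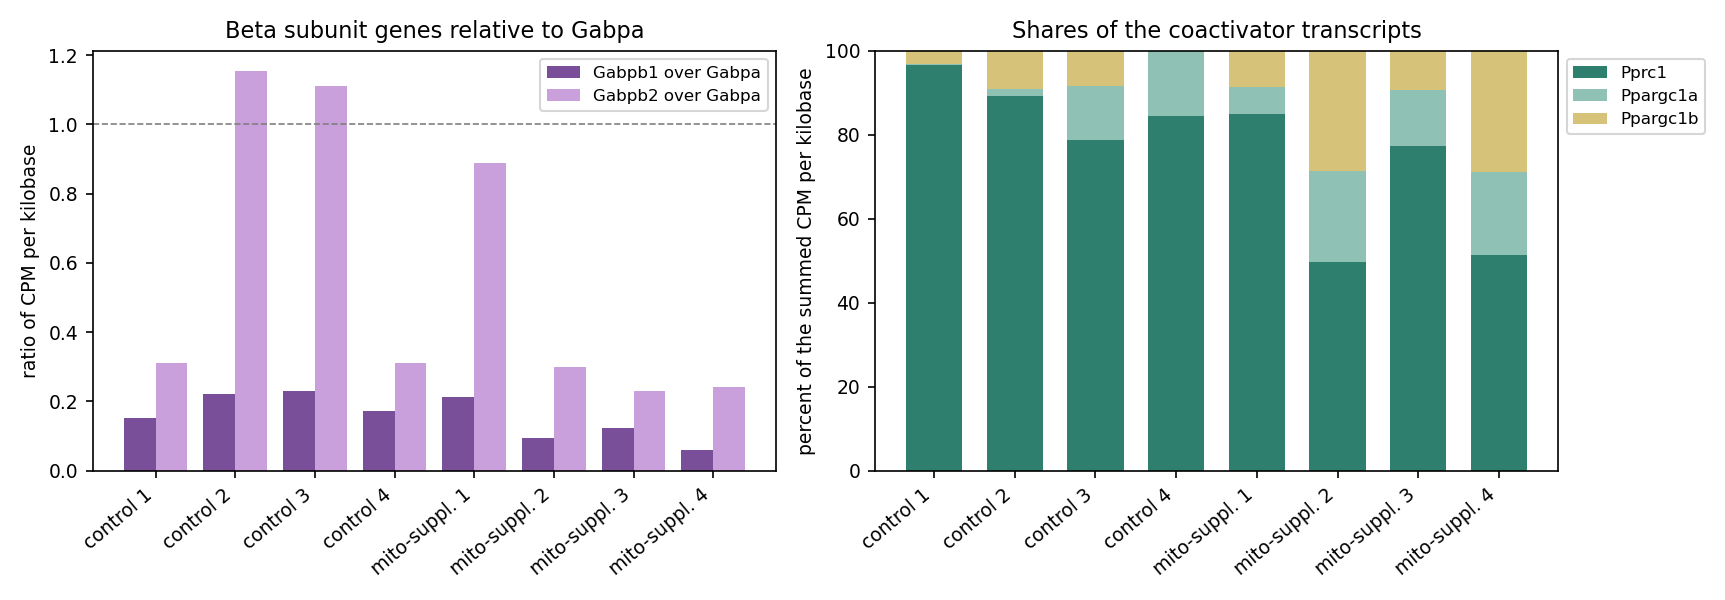
Left, bars give the ratio of Gabpb1 and of Gabpb2 to Gabpa in CPM per kilobase for each library, with a dashed line at a ratio of 1, and right, stacked bars give the percent of the summed CPM per kilobase of the 3 coactivators that each one holds. Gabpb2 exceeds Gabpa in control replicates 2 and 3, and Pprc1 holds 49.6% and 51.5% in mito-supplemented replicates 2 and 4.

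Esrra encodes ERR-alpha, the orphan nuclear receptor through which PGC-1alpha reaches many respiratory genes, and its median level per kilobase was the lowest of the 10. It ranked last in 5 of 8 libraries, and Ppargc1a and Ppargc1b lay below it in control replicate 1. Ppargc1a also lay below it in control replicate 2, and Ppargc1b in control replicate 4. It had 2.22, 1.03, 0.915 and 0.395 CPM across controls 1 to 4, against 0.582, 2.08, 0.590 and 2.36 CPM across mito-supplemented libraries 1 to 4. These rest on between 2 and 54 counts per library. The groups overlapped, though mito-supplemented replicate 4 lay above every control and control replicate 4 below every mito-supplemented library. The log2 difference of the groups was 0.27 (standard error 0.91, adjusted p = 0.935 in the same edgeR test), and its sign turned with limma-voom, with the GC and length offset and without mito-supplemented replicate 4, the values running from -0.12 to 0.83 over the alternatives.

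Yy1 encodes a zinc finger factor that recruits PGC-1alpha to mitochondrial genes and also has many other targets. It had 33.5, 55.3, 47.5 and 32.8 CPM across controls 1 to 4, against 60.3, 33.0, 31.0 and 20.8 CPM across mito-supplemented libraries 1 to 4. Mito-supplemented replicate 1 was the highest library and replicate 4 the lowest, so that the group spanned the controls. The log2 fold change was -0.22 (standard error 0.40, adjusted p = 0.875 in the same edgeR test), with library size only it was 0.05, and without mito-supplemented replicate 1 it was -0.56. For Yy2, a retrogene copy of Yy1 whose exons lie wholly within those of Mbtps2, counts are uncertain, and values ran from 0.765 to 18.1 CPM, the highest in control replicate 1.

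Sirt1, the nuclear deacetylase that acts on PGC-1alpha, had the lowest p value of the 10. It had 62.2, 76.4, 74.0 and 51.5 CPM across controls 1 to 4, against 60.5, 30.5, 38.4 and 25.7 CPM across mito-supplemented libraries 1 to 4. Mito-supplemented replicates 2 to 4 were below every control, and replicate 1 lay among the controls. The means were 66.0 ± 11.51 and 38.8 ± 15.4 CPM (SD, n = 4 each), and the log2 fold change was -0.77 (standard error 0.36, unadjusted p = 0.0598, adjusted p = 0.655 in the same edgeR test). Without mito-supplemented replicate 1 it was -1.04 (unadjusted p = 0.0173, adjusted p = 0.281), and with limma-voom -0.83 (unadjusted p = 0.0370, adjusted p = 0.453). With library size only it was -0.51. Adjusted p lay between 0.281 and 0.972 in all alternatives.

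Sirt3, the main deacetylase of the mitochondrial matrix, was low and had another pattern. It had 3.65, 5.79, 2.57 and 1.58 CPM across controls 1 to 4, against 3.98, 4.43, 3.99 and 12.5 CPM across mito-supplemented libraries 1 to 4. Mito-supplemented replicate 4 stood alone above all others, and the remaining 3 lay within the control range. In log2 terms the difference was 0.86 (standard error 0.70, adjusted p = 0.747 in the same edgeR test), without mito-supplemented replicate 4 it was 0.30, and with libraries of the same code prefix added together 1.39. Its exons overlap those of Ric8a by 418 bases and of Psmd13 by 342 bases, both on the opposite strand, so that part of its counts is uncertain. Per kilobase, the ratio of Sirt1 to Sirt3 was 14.8 to 36.6 for controls, against 17.0, 7.72, 10.8 and 2.30 across mito-supplemented libraries 1 to 4, the last 3 below every control.

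**Figure D3:**
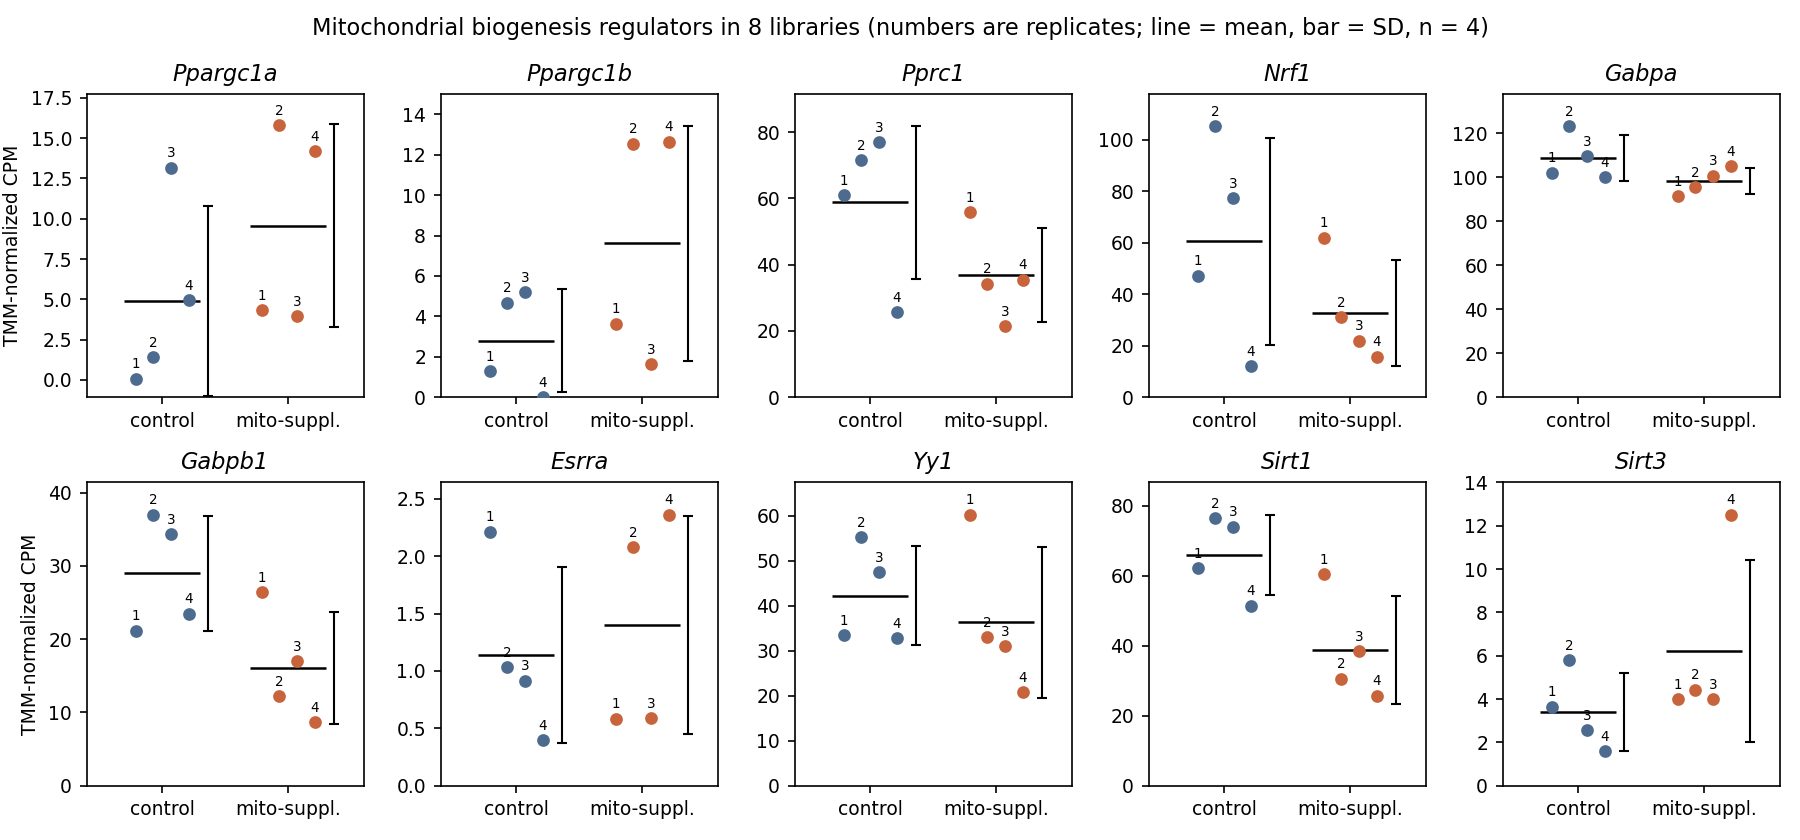
TMM-normalized CPM of each regulator in the control and mito-supplemented libraries, each point a library with its replicate number, lines at the group means and bars of 1 SD (n = 4). For Sirt1 and Gabpb1 mito-supplemented replicates 2 to 4 lie below every control, and in all 10 panels the groups overlap.

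Over the whole table, a gene was called where adjusted p was under 0.05 and the difference at least 2-fold. All 10 regulators passed edgeR's filter on low counts and were tested. The quasi-likelihood test called 0 of the 10 and 0 of the 13873 genes (0%). Its unadjusted p was under 0.05 for 0 of the 10, against 1069 of all genes (7.71%). The likelihood ratio test called 0 of the 10 against 0.418% of all genes, and at an unadjusted p value under 0.05 it found 0 against 9.2%. DESeq2 called 0 against 1.02%, and found 0 against 10.8% at an unadjusted p value under 0.05. In limma-voom 0 were called, as of all genes (0%), and 1 of the 10, Sirt1, had an unadjusted p value under 0.05 against 10.3% of all genes. The control and mito-supplemented values did not overlap for 0 of the 10 and for 5.03% of all genes.

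The 10 did not share a direction. The log2 fold change was negative for 6 of them and positive for 4, with a median of -0.18 against -0.10 for all genes tested. With library size only it was negative for 4 and positive for 6, with a median of 0.10 against 0.17 for all genes. Ppargc1a, Ppargc1b and Sirt3 were on the higher side and Pprc1, Nrf1, Gabpb1 and Sirt1 on the lower side in each alternative tried, while Esrra, Gabpa and Yy1 changed sides. None of these differences passed the test in any alternative.

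**Figure D4:**
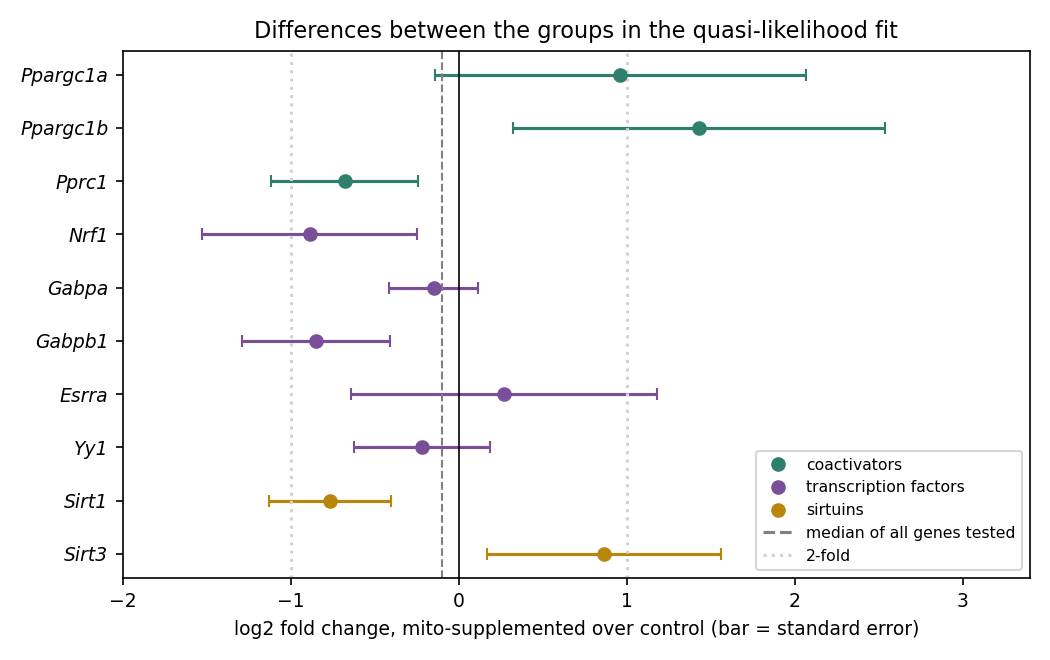
Log2 fold change of each regulator, mito-supplemented over control, with its standard error, in the colour of its role. The values run from -0.89 for Nrf1 to 1.43 for Ppargc1b, and the dashed line is the median of all genes tested at -0.10.

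Some libraries, across the groups, stood apart by their levels of some marker genes of other cells. Markers of red cells (5 of the 7 listed were found), led by Slc4a1, the anion exchanger of their membrane, summed to 3617 and 2401 CPM in control replicates 2 and 3 and to 4530 CPM in mito-supplemented replicate 1, but to 13.4 and 41.5 CPM in control replicates 1 and 4 and to 72.9, 20.1 and 19.2 CPM in mito-supplemented replicates 2 to 4. The globin genes Hba-a1 and Hba-a2 were at 8.40 CPM or less in every library. Immune markers, led by Lyz2, were highest in the same 3 libraries, with 130 and 114 CPM in control replicates 2 and 3 and 725 CPM in mito-supplemented replicate 1, against 9.80 to 21.3 CPM elsewhere. That sum rests on Lyz2 and Ptprc, and the other 4 of the 6 immune markers did not have these 3 libraries highest, Cd74 being highest in control replicate 1 with 4.72 CPM and mito-supplemented replicate 2 with 4.23 CPM. These were also the 3 libraries with the highest Nrf1, Gabpb1 and Yy1, which is 3 of the 10 regulators (30%), against 1963 of the 13873 genes tested (14.1%), and those with the highest Gabpb2. The other 7 regulators had other libraries among their 3 highest, and the difference between these shares was not tested. The part of these other cells in the levels of the regulators was not tested.

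**Figure D5:**
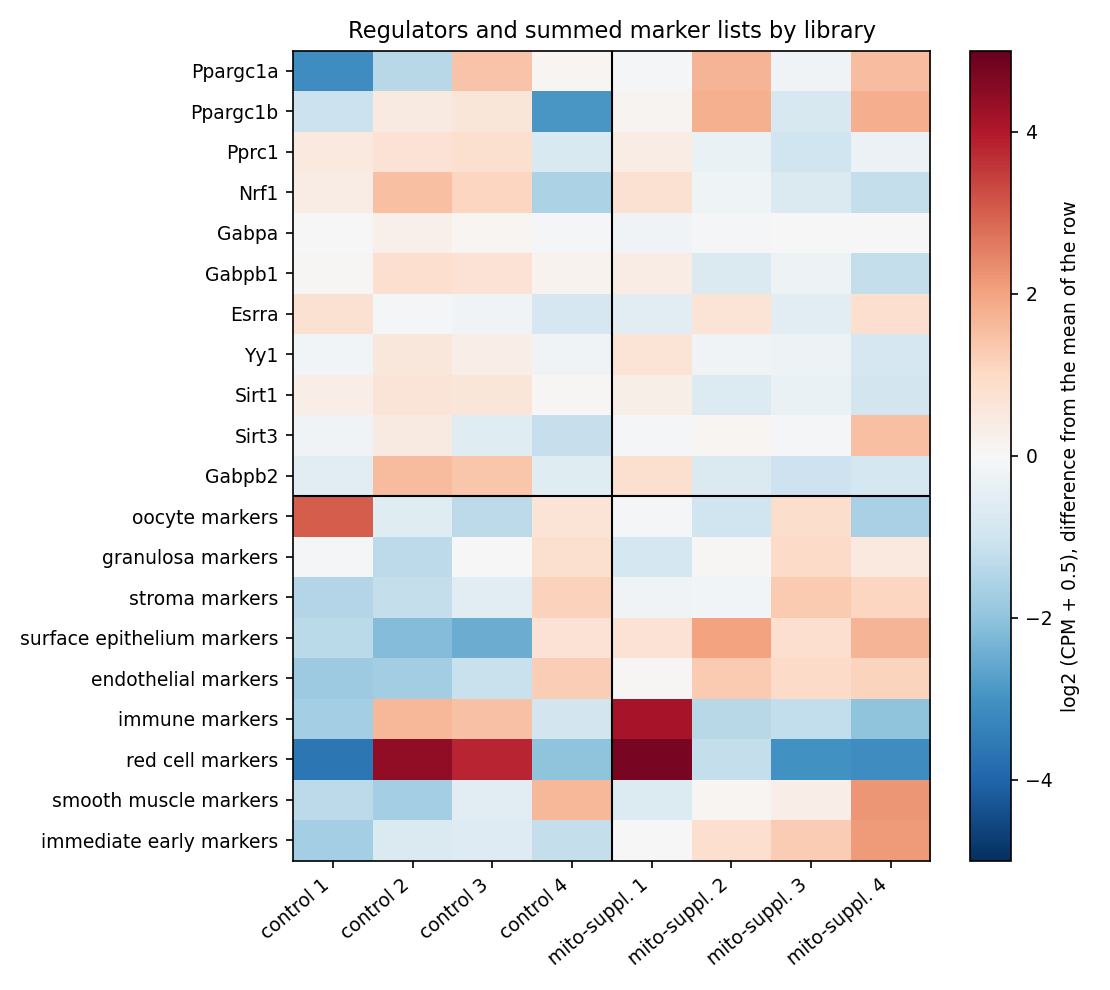
Each cell gives, on a log2 scale, how far a gene or a summed marker list lies in a library from the mean of its row, red above and blue below, with controls left and mito-supplemented libraries right of the line. Red cell markers reach 3617, 2401 and 4530 CPM in control replicates 2 and 3 and mito-supplemented replicate 1, and Gabpa is nearly white throughout.

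The other marker lists divided the libraries in other ways. With 4 against 4 libraries and 9 lists, the exact test cannot bring a single list to an adjusted p under 0.05, so its p values are given as a description. The lists were also chosen with earlier results of these data known. The shares of their genes under 0.05 are thus a description too. Surface epithelium markers, led by Lgr5, summed to 80.4, 45.4, 36.5 and 342 CPM across controls 1 to 4, against 337, 835, 363 and 658 CPM across mito-supplemented libraries 1 to 4 (exact permutation test, two-sided, p = 0.0571, adjusted p = 0.257 over 9 lists), and 5 of the 8 genes (62.5%) had an unadjusted p under 0.05 in edgeR's quasi-likelihood test, all higher, against 7.71% of all genes, 736 higher and 333 lower. Immediate-early genes summed to 192, 378, 395 and 271 CPM for the controls, against 624, 1125, 1516 and 2714 CPM with supplementation (exact permutation test, two-sided, p = 0.0286, and no smaller p is possible with 4 against 4, adjusted p = 0.257), and 6 of the 8 genes (75.0%) had an unadjusted p under 0.05 in edgeR's quasi-likelihood test, all higher, against the same 7.71% of all genes. Stroma markers, led by Col3a1, summed to 425, 505, 780 and 2606 CPM for the controls, against 1044, 1070, 2876 and 2459 CPM with supplementation (p = 0.2 in the exact permutation test). Endothelial markers, led by Kdr, summed to 25.6, 27.2, 42.3 and 212 CPM, against 94.9, 225, 177 and 201 CPM (p = 0.114 in the exact permutation test). Control replicate 4 was the highest control in both. The same was so for smooth muscle markers, led by Myh11, with 27.9, 21.2, 47.4 and 226 CPM, against 43.6, 74.7, 87.7 and 324 CPM (p = 0.486 in the exact permutation test). For oocyte, granulosa, immune and red cell markers p was 0.543, 0.6, 0.943 and 0.914 in the same exact test. Gene by gene, all 10 oocyte markers had a log2 fold change below 0, against 55.1% of all genes. Their median was -1.72, and 1 of them had an unadjusted p under 0.05 in edgeR's quasi-likelihood test. Without control replicate 1 the log2 ratio of their sum was 0.0134. All 9 stroma markers were above 0, against 44.9% of all genes. Mito-supplemented replicates 2 and 4, which had the most Ppargc1a and Ppargc1b, also had the most surface epithelium markers, and the part of these cells in that result was not tested.

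The wider pathway gave 94 genes in 6 lists, of which 85 were tested. These lists were likewise chosen with earlier results of these data known, so their shares are a description. edgeR's quasi-likelihood test called 0 of the 85, as did the likelihood ratio test, DESeq2 and limma-voom. Unadjusted p was under 0.05 for 6 of the 85 (7.06%), 5 on the higher and 1 on the lower side, against 7.71% of all genes tested, 736 on the higher and 333 on the lower side. This count ran from 2 to 11 with single libraries left out, and was 3 with libraries of the same code prefix added together. The median log2 fold change was -0.12 over the 85, against -0.10 for all genes tested. Among relatives of the regulators 0 of 8 had an unadjusted p value under 0.05, with a median of -0.36. Over the alternatives that count was 0 or 1 and the median ran from -0.97 (control replicate 4 left out) to -0.03 (control replicate 1 left out). The next lowest p after Gabpb2 belonged to Yy2 (log2 fold change -1.12) and Esrrg (-1.55).

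Of the kinases and activators upstream of PGC-1alpha, 1 of 21 (4.76%) reached an unadjusted p value under 0.05, against 7.71% of all genes tested. Their median was -0.12, against -0.10 for all genes tested. The count was between 0 and 3 in the alternatives, and the median between -0.23 with the GC and length offset and 0.25 with limma-voom, so that its sign is not settled. The gene under 0.05 was Crtc1, a CREB coactivator, with 26.5, 19.8, 13.3 and 17.6 CPM across controls 1 to 4, against 25.96, 38.3, 25.5 and 64.7 CPM across mito-supplemented libraries 1 to 4. Its groups overlapped through control replicate 1 (log2 fold change 1.00, standard error 0.43, adjusted p = 0.636 in the same edgeR test). Its relative Crtc2 had between 7.70 and 14.1 CPM in the controls, against 17.6 to 21.3 CPM with supplementation, with no overlap (log2 fold change 0.80, adjusted p = 0.662). Mef2a, a factor that drives the Ppargc1a promoter in muscle, had 44.6 to 92.4 CPM and 76.0 to 111 CPM in the 2 groups (log2 fold change 0.73, adjusted p = 0.655).

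Cofactors gave 0 of 19 at an unadjusted p value under 0.05, against 7.71% of all genes tested, with a median of -0.02. In the alternatives the count reached 3 without control replicate 4, and the median lay between -0.17 with the GC and length offset and 0.25 with library size only. The lowest p values were those of Nmnat3, which makes NAD in mitochondria (log2 fold change -1.46, adjusted p = 0.678 in the same edgeR test), of Fbxw7, whose ubiquitin ligase marks PGC-1alpha for breakdown (-0.87, adjusted p = 0.678), and of Lpin1, a partner of PGC-1alpha in liver (-0.91, adjusted p = 0.695).

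The list of nuclear receptors that PGC-1alpha serves also includes Foxo1 and Foxo3, which are not nuclear receptors. It held 3 of those 6 pathway genes, out of 9 tested (33.3% against 7.71% of all genes), all on the higher side. This count was 1 without control replicate 2 or without mito-supplemented replicate 4, and 0 with libraries of the same code prefix added together. Ppara, the fatty acid receptor, had 8.04, 1.35, 2.12 and 1.38 CPM across controls 1 to 4, against 10.6, 16.4, 11.9 and 13.4 CPM across mito-supplemented libraries 1 to 4. Every mito-supplemented library was above every control (log2 fold change 2.00, standard error 0.69, adjusted p = 0.626 in the same edgeR test). Thrb, a thyroid hormone receptor, had between 0.395 and 1.56 CPM in the controls, against 1.52 to 8.14 CPM with supplementation (log2 fold change 2.54, adjusted p = 0.626). Pparg was close to absent from controls, at 0.801 CPM or less, and had 0.554 to 7.51 CPM in mito-supplemented libraries (log2 fold change 3.69, adjusted p = 0.626).

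Of the targets of the respiratory factors, 16 of 20 (80.0%) had a log2 fold change below 0, against 55.1% of all genes, with a median of -0.22 against -0.10. With library size only 10 of the 20 were below 0, against 5760 of 13873 of all genes, and without control replicate 1 it was 11 of the 20, against 6898 of 14291. The median ran from -0.38 to -0.02 over the alternatives. An unadjusted p value under 0.05 was found for 1 of the 20 (5.0%), against 7.71% of all genes. This count was 0 with library size only, with the replicate number as a block and with libraries of the same code prefix added together. It was also 0 without control replicate 1, 2 or 3 or without mito-supplemented replicate 2, 3 or 4, and 1 in the other alternatives. The gene under 0.05 was Polg2, the accessory subunit of the mitochondrial DNA polymerase, with 16.0, 19.4, 13.7 and 5.33 CPM across controls 1 to 4, against 8.06, 2.56, 4.13 and 5.70 CPM across mito-supplemented libraries 1 to 4. Its groups overlapped through control replicate 4 (log2 fold change -1.41, standard error 0.58, adjusted p = 0.636 in the same edgeR test). Tfam, which packages mitochondrial DNA, had 32.7, 13.5, 21.3 and 26.7 CPM across controls 1 to 4, against 13.6, 15.0, 14.2 and 19.5 CPM across mito-supplemented libraries 1 to 4, all within the control range (log2 fold change -0.60, adjusted p = 0.713). Sdhb (log2 fold change -0.52, adjusted p = 0.719), Polg (-0.52, adjusted p = 0.796) and Cycs (-0.56, adjusted p = 0.819) were likewise on the lower side in this fit. Cycs, the gene of cytochrome c, has many processed pseudogenes, and its level of 1.25 to 12.04 CPM is uncertain because the sources used here do not say how reads that map to several places were counted.

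The GABP motif was found in the promoters of 10 of the 19 respiratory factor targets with a window (52.6%), and the NRF1 motif in 3 of 19 (15.8%). The list was drawn up from known targets of these factors, so nothing is read from these shares. Stretches from Tfam, Polg and Cycs are printed to show what such letters look like in 3 target promoters, again on the strand of the gene and with the motif in capitals, GABP for Tfam and Polg and NRF1, as its reverse complement, for Cycs.
Tfam, minus strand, chr10:71238040-71238136: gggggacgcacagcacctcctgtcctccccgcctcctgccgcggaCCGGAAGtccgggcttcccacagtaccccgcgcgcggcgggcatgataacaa
Polg, minus strand, chr7:79466260-79466356: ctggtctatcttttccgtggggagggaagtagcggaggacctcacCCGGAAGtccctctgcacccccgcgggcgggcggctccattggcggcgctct
Cycs, minus strand, chr6:50566577-50566675: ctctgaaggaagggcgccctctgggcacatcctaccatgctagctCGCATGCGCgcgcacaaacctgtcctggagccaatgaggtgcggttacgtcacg

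Of the targets of the coactivators, 6 of 8 (75.0%) had a log2 fold change above 0, against 44.9% of all genes. Their median was 0.32, against -0.10 for all genes. An unadjusted p value under 0.05 was found for 1 of the 8 (12.5%), against 7.71% of all genes. No test was made of these shares. Alternatives gave a count of 0 to 2 and a median from 0.15 (mito-supplemented replicate 1 left out) to 0.63 (control replicate 2 left out). The gene under 0.05 was Vegfa, the vascular growth factor, with 7.59, 24.3, 19.9 and 27.8 CPM across controls 1 to 4, against 32.6, 87.6, 39.7 and 35.6 CPM across mito-supplemented libraries 1 to 4. Its groups did not overlap (log2 fold change 1.30, standard error 0.50, adjusted p = 0.626 in the same edgeR test). Cpt1a, which admits fatty acids into mitochondria, had between 23.8 and 50.9 CPM in the controls, against 43.9 to 93.9 CPM with supplementation (log2 fold change 0.79, adjusted p = 0.655). Acadm, an enzyme of fatty acid oxidation, had a log2 fold change of 0.49 (adjusted p = 0.741).

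The genes whose log2 CPM followed each regulator most closely over the 8 libraries were named by Pearson's r, as a description of libraries that differ in depth and in marker levels. For the coactivators these were Kcnd1 with Ppargc1a (r = 0.986), Gm10336 with Ppargc1b (r = 0.972) and 6030458C11Rik with Pprc1 (r = 0.974). For the transcription factors they were Nap1l4 with Nrf1 (r = 0.986), Phf17 with Gabpa (r = 0.935), Ccnb1 with Gabpb1 (r = 0.984), Dbt with Esrra (r = 0.952) and Otub2 with Yy1 (r = 0.991). Uhrf1 followed Sirt1 (r = 0.995) and Ksr1 followed Sirt3 (r = 0.974). Uhrf1 had 136, 177, 199 and 80.1 CPM across controls 1 to 4, against 118, 26.04, 36.0 and 14.2 CPM across mito-supplemented libraries 1 to 4, so that it shared with Sirt1 the low values of mito-supplemented replicates 2 to 4.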

How the data were processed

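The authors trimmed the reads with Trim Galore 0.4.4, mapped them to mm10 with STAR 2.5.3a and counted them per gene with featureCounts, per the submitters' processing notes, and the deposited values are raw counts of 8 libraries. The paper left out a control sample as an outlier before its tests, and the deposited values hold 4 controls. The fit on these was made in edgeR 4.0.16 (R 4.3.3), with TMM scaling, the default filter (13873 of 26586 genes kept) and the quasi-likelihood test, and with Benjamini-Hochberg adjustment over all genes tested. The likelihood ratio test, DESeq2 1.42.0 and limma 3.58.1 were alternatives. Single totals were compared by exact permutation tests. CPM on the log2 scale had a prior count of 2. Exon lengths, coordinates and overlaps are those of GENCODE M21, where 24563 symbols had a match. The genes named were the 10 regulators, the 3 of lowest p in each of 6 pathway lists, Tfam, Polg, Cycs, Yy2 and Gabpb2, and the closest gene to each regulator. The regulators and lists were chosen with earlier results of these data known. The p values measure the spread between these samples, which the paper counts as 4 mice a group, and the sources do not say which came from the same litter.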

Additional observations from a re-analysis of the deposited data

Results flagged for a closer look

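Of 58 sets of 4 values checked, 5 had a library far from the other 3 of its group, and chance gives about 1 in 20. The gap to the nearest value, as a share of the whole range, was 0.907 for Sirt3 on the log2 scale in mito-supplemented replicate 4, which was high, and 0.918 for the summed coactivators per kilobase in mito-supplemented replicate 3, which was low. It was 0.869 for the immune markers, 0.895 for the ratio of Gabpb2 to Gabpa and 0.888 for the ratio of Gabpb1 and Gabpb2 together to Gabpa, all high in mito-supplemented replicate 1. The log2 fold change of Sirt3 was 0.86 with and 0.30 without mito-supplemented replicate 4.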

How the results depend on the processing

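The count of called genes was 0 in each of the 20 alternatives except the likelihood ratio test (58) and DESeq2 (141), and the regulators and the pathway lists had 0 calls in all 20. Of 199 values of the regulators under these alternatives, 194 kept their direction. Those that turned were Gabpa (0.14) and Yy1 (0.0503) with library size only, which moved the median of all genes from -0.10 to 0.17, and Esrra with limma-voom (-0.12), with the GC and length offset (-0.0473) and without mito-supplemented replicate 4 (-0.064). Without control replicate 1 Esrra stood highest, at 0.83. Regulators at an unadjusted p value under 0.05 numbered 1 with limma-voom and 1 with the GC and length offset, Sirt1 in both, and 0 to 2 when single libraries were left out. For all of these, the cause was not tested. Esrra did not pass the filter of at least 1 CPM in 4 samples. Of all genes, between 572 (mito-supplemented replicate 2 left out) and 2003 (mito-supplemented replicate 1 left out) had an unadjusted p value under 0.05. Higher and lower genes among them numbered 736 and 333 in the quasi-likelihood test, 1288 and 53 with library size only and 590 and 535 with the GC and length offset.

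With libraries of the same code prefix added together, 0 genes were called, 1178 had an unadjusted p value under 0.05, and the log2 fold change of Nrf1 was -1.20 and of Sirt3 1.39.

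With the replicate number as a block, 0 genes were called, 981 had an unadjusted p value under 0.05, and the median of the regulators was -0.22. A check of the pairing gave correlations of same-numbered libraries of -0.24, -0.19, -0.33 and 0.22.

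Leaving out single libraries, the log2 ratio of summed markers ran from -2.21 to 0.0134 for oocyte, -0.0303 to 0.67 for granulosa, 0.50 to 1.71 for stroma, 1.82 to 3.34 for surface epithelium, 0.89 to 2.46 for endothelial, 1.82 to 2.53 for immediate-early, -2.30 to 1.96 for immune, -5.34 to 0.50 for red cell and -0.23 to 2.04 for smooth muscle markers. For red cell markers the sign turned without control replicate 2 (0.50) or mito-supplemented replicates 2 (0.0047), 3 (0.0212) or 4 (0.0215).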
